A study of Mus musculus with 4 samples.

Results

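The binding signal at 9 genes of the actin cytoskeleton was followed in a genome-wide map of chromatin bound by the transcription factor ATF4 in mouse regulatory T cells. The genes are Actb, Actg1, Actr2, Actr3, Cfl1, Pfn1, Tmsb4x, Coro1a and Arpc2. The genes were chosen by their peaks in this same list, so the presence, number and strength of their peaks are given as a description, with no test. Of the 4544 peaks of the list, 18 were assigned by the authors to 8 of the 9 genes, and none to Actg1.

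The chromatin came from enriched CD4+CD25+ cells, the fraction that holds most regulatory T cells, which restrain immune responses. Per the labels there were 2 ATF4 immunoprecipitates and 2 inputs, numbered 1 and 2 in each group, from cells fixed in 1% formaldehyde for 10 min. No genotype, treatment, age or sex is given in the sources used here, all samples share the same cell type, and the labels name spleen where the design text names spleen and lymph nodes. The deposited result is 1 peak list on build mm10 with no values per sample, so no error between replicates can be given, and sequencing depth is unknown. Over all peaks the fold enrichment at the summit, which is the authors' own value for each peak, had a median of 3.30 with quartiles of 2.71 and 4.09. The −log10 q had a median of 5.71 and the width a median of 261 bp. As a check of the cell type, 5 of 10 genes listed for T cell identity had an assigned peak, with 4 at Ctla4 and 3 each at Foxp3 and Ikzf2, while Cd3d, Cd3e, Cd3g, Cd4 and Cd5 had none. Of the marker genes of other cell types 1 of 10 had one, near the 12.9% of all protein-coding genes, so peaks are a weak check. A peak is binding signal and not expression.

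Actin is a globular protein that joins into filaments. Profilin (Pfn1) and thymosin β4 (Tmsb4x) bind its monomers, cofilin (Cfl1) severs old filaments, and the Arp2/3 complex, with the subunits encoded by Actr2, Actr3 and Arpc2, starts new branches. In T cells, branched actin shapes the contact with an antigen-presenting cell and drives migration, and coronin 1A (Coro1a) is a filament-binding protein needed for T cell survival. The genes for cytoplasmic β-actin (Actb), γ-actin (Actg1) and thymosin β4 are known as abundantly transcribed genes in lymphocytes. Transcription itself was not measured in the data used here.

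The start sites of 3 genes are shown, Actg1 because a peak assigned to another gene covers it, and Tmsb4x and Cfl1 because their peaks begin close to the start. Each line holds 120 bases before the annotated start and the first 30 transcribed bases, 5′ to 3′ on the gene's strand, from RefSeq on GRCm38.p6. Of the 9 genes, 8 had a promoter entry there, all but Actb, which was therefore not searched for motifs. For Actg1 (chr11:120348466-120348615, minus strand) the whole stretch lay under a peak, and capitals mark a CArG box, the element bound by serum response factor. For Tmsb4x (chrX:167209189-167209338, minus strand) and Cfl1 (chr19:5490335-5490484, plus strand) capitals mark the bases under the peak.
Actg1: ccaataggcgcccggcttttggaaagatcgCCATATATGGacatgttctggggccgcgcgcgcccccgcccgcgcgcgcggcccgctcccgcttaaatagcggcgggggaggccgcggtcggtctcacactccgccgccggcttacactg
Tmsb4x: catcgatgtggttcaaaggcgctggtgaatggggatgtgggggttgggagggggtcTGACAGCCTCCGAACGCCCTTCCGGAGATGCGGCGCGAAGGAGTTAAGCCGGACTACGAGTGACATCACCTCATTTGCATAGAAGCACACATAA
Cfl1: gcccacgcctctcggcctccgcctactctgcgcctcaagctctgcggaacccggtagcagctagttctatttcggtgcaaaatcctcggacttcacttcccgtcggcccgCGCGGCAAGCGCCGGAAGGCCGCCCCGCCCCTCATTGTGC

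Of the motifs searched on both strands in the 300-base promoter windows of the 8 genes, the C/EBP-ATF element TGATGCAA, the cyclic AMP response element TGACGTCA and the AP-1 element TGANTCA had no match. Over all 32817 distinct windows of that length, 0.896%, 1.79% and 7.81% held them. The CArG box, which 1.63% of all windows held, was found in 1 of the 8 genes, 90 to 81 bases before the start of Actg1. A match is a description of the letters and not a site. The sequences of the peaks themselves were not searched. The share of a window that lay under peaks ran from 0% for Actr2 to 100% for Actg1 and Actr3, and it was 38% for Tmsb4x and 20% for Cfl1. A missing match therefore does not show that a peak lacks the motif. The capitals show that the peak over Tmsb4x began only 64 bases before the start and that the one over Cfl1 began 10 bases before it, with the rest of both peaks on the transcribed side.

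β-actin had the strongest peak of the 9 genes. The Actb peak over the start (chr5:142905597-142907034) had a fold enrichment of 11.8 and a −log10 q of 129. It ranked 59 of 4544 by fold enrichment and 49 by width, at 1438 bp. Its summit lay 61 bp downstream of the assigned start, and 1157 bases lay on the transcribed side against 280 before it. The other peaks assigned to Actb were below the median fold enrichment of all peaks but within its quartiles. They had fold enrichments of 3.01 toward the 3′ end of the gene (class Promoter 2 to 3 kb), 2.84 upstream at 1243 bp from an alternative start, and 3.14 at 21.2 kb, classed as Distal Intergenic. In the same order their −log10 q values were 3.06, 2.62 and 8.53, beside a median of 5.71 over all peaks.

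A far wider peak lay over the other end of Actb. It covered chr5:142899551-142903618, 4068 bp in all, and was the second widest of the list, at a fold enrichment of 6.01 and a −log10 q of 18.4. It reached from 503 bp inside the 3′ end of Actb to 3564 bp past it. The authors assigned it to Fbxl18, an F-box protein gene whose start lay 2830 bp away, so the rule for the 18 peaks does not count it.

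γ-actin had no assigned peak, yet the peak over its start was the second strongest at these genes. It covered chr11:120347598-120348824, with a fold enrichment of 9.69 and a −log10 q of 62.7, ranking 76 by fold enrichment and 84 by width (1227 bp). Its summit was 25 bp inside Actg1 from the Actg1 start, with 897 bases on the transcribed side and 329 before it. The authors assigned it to 0610009L18Rik, a noncoding transcript, whose start this peak also covered. At the 3′ end of Actg1, 2 more peaks with fold enrichments of 4.80 and 4.07 were assigned to Mir6935, a microRNA gene. Both actin genes therefore had a strong peak over the start and further peaks at the 3′ end, and all of those at Actg1 stood under other gene names in the deposited annotation.

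**Figure D1:**
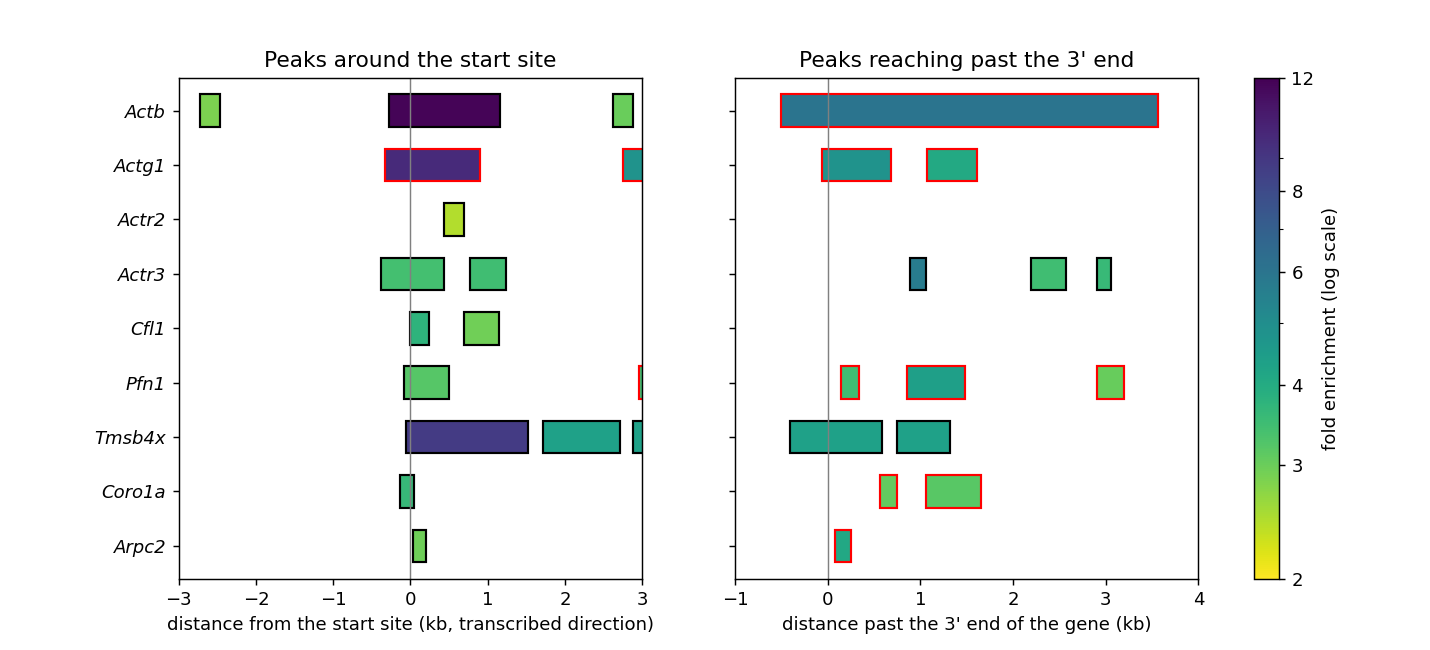
Map of the peaks at the 9 genes, drawn in the transcribed direction from the start site (left) and from the 3′ end of the gene (right), in kb. Each box is 1 peak drawn to its width and coloured by fold enrichment on a log scale, with a black outline where the authors assigned it to the gene and a red outline where they assigned it to another. Boxes past the 3′ end stand in 7 of the 9 rows, and the start of Actg1 lies under a red-outlined peak at 9.69.

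Thymosin β4, the main store of actin monomers, had 3 assigned peaks, almost end to end, from its assigned start to past the 3′ end. They covered 31.2% of the annotated span, which reaches further upstream. The first (chrX:167207698-167209282) had a fold enrichment of 8.79, a −log10 q of 50.6 and a width of 1585 bp, ranking 102 by fold enrichment and 35 by width. Its summit lay 86 bp downstream of the assigned start, and 1520 of its bases lay on the transcribed side of that start against 64 before it. The other peaks had fold enrichments of 4.34 and 4.33 and lay over and past the 3′ end, the last of them from 754 to 1319 bp past it. Gaps between the 3 were under 500 bp, and joined they would count as 1 peak.

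Profilin and cofilin, which work on monomers and on filament turnover, had weaker peaks over the start. The Pfn1 peak had a fold enrichment of 3.22 and a −log10 q of 10.2. Its summit lay 76 bp downstream of the assigned start, with 502 of 589 bp on the transcribed side. Cfl1 had a peak over the start at 3.77 (−log10 q of 18.5) and another at 2.96 in the gene, 698 bp from the start. Past the 3′ end of Pfn1 lay 3 peaks that the authors assigned to the neighbours Eno3, the muscle enolase gene, and Rnf167, a ubiquitin ligase gene. The strongest of these had a fold enrichment of 4.41 and a −log10 q of 16.4, both above the values of the Pfn1 start peak.

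The Arp2/3 subunits differed among themselves. Actr3 (Arp3) had the most assigned peaks of the 9 genes, with 5. The pair at the start had fold enrichments of 3.41 and 3.47 and −log10 q values of 16.8 and 9.52. The other 3 were classed as Distal Intergenic at 43.7 to 45.7 kb from the start, which placed them 885 to 3059 bp past the 3′ end of this gene of 42823 bp. One of them had the highest fold enrichment at Actr3, 5.68, over a width of 173 bp, at a −log10 q of 6.77. The other distal peaks had −log10 q values of 2.60 and 2.19. Actr2 (Arp2) had 1 peak with a fold enrichment of 2.46 and a −log10 q of 2.91, the weakest of the 18 by fold enrichment, at 434 bp inside the gene. Arpc2 had 1 peak with a fold enrichment of 2.96 and a −log10 q of 9.38, beginning 36 bp downstream of its assigned start. A further peak with a fold enrichment of 4.11 and a −log10 q of 2.77, assigned to Gpbar1, began 82 bp past the 3′ end of Arpc2.

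Coronin 1A had 1 assigned peak, over the start of a Coro1a transcript that begins inside the span of the gene, with a fold enrichment of 3.62 and a −log10 q of 14.5. It was narrow, at 183 bp, and its summit lay 33 bp before that start. Past the 3′ end lay 2 weaker peaks with fold enrichments of 3.07 and 3.19, both assigned to Bola2, a gene of iron-sulfur protein assembly.

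**Figure D2:**
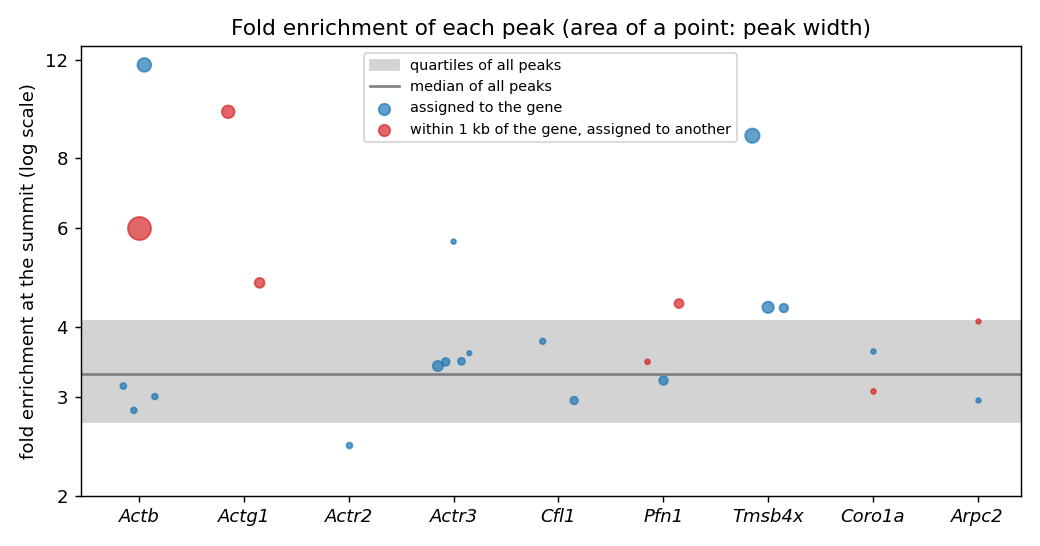
Fold enrichment at the summit, on a log axis, of each peak assigned to the 9 genes (blue) and of each peak within 1 kb of their spans that was assigned to another gene (red). The area of a point stands for the width of the peak, the line and the grey band are the median of 3.30 and the quartiles of all 4544 peaks, and only start peaks of Actb, Actg1 and Tmsb4x exceed 8.

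Over the 18 assigned peaks the fold enrichment ran from 2.46 to 11.8 with a median of 3.47, beside 3.30 over all peaks. Of the 18, 11 were above the median fold enrichment of the list, 13 above its median −log10 q and 12 wider than its median width. The median −log10 q was 9.45 and the median width 332 bp. By class, 14 of 18 were Promoter peaks, or 77.8%, against 74.3% of the whole list, and 4 were Distal Intergenic. The Promoter class goes by distance from a start, so for short transcripts it reaches the 3′ end. It held the Tmsb4x peaks over and past the 3′ end, at 1716 and 2879 bp from the start. None of the 18 lay in the Intron class, which held 10.2% of all peaks. The 3 highest were the start peaks of Actb and Tmsb4x and the narrow distal peak of Actr3, which ranked 59, 102 and 365 of 4544 by fold enrichment. By −log10 q these 3 ranked 102, 252 and 1934.

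The strongest start peaks lay mostly on the transcribed side. Starts here are those of the transcript to which the authors assigned the peak. For Actb, Tmsb4x, Pfn1, Coro1a and Arpc2 that start lies inside the annotated span, which begins further upstream, so bases before it can also be inside the span. In the whole list, 2033 peaks covered the start of their transcript, with a median summit 32 bp downstream of it (quartiles −30 and 70 bp) and a median of 174 bases downstream against 110 upstream. Of the 6 such peaks assigned to the 9 genes, 4 had the summit downstream (Actb, Cfl1, Pfn1 and Tmsb4x) and 2 upstream, 116 bp for Actr3 and 33 bp for Coro1a. Over the whole list 67.1% had it downstream, so this count is near the background. The extent differed more. By bases on the transcribed side, the Tmsb4x peak was within the top 0.443% of the 2033 peaks, that of Actb within 1.03% and that of Pfn1 within 8.07%. That of Actr3 was within 10.6%, that of Cfl1 within 31.2% and that of Coro1a, with 44 bases, within 93.4%. The number of bases also depends on peak width. As a share of width, 96.0% lay downstream for Tmsb4x, 95.9% for Cfl1, 85.4% for Pfn1 and 80.5% for Actb. It was 52.9% for Actr3 and 24.2% for Coro1a, beside a median of 63.7% over the 2033 peaks.

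**Figure D3:**
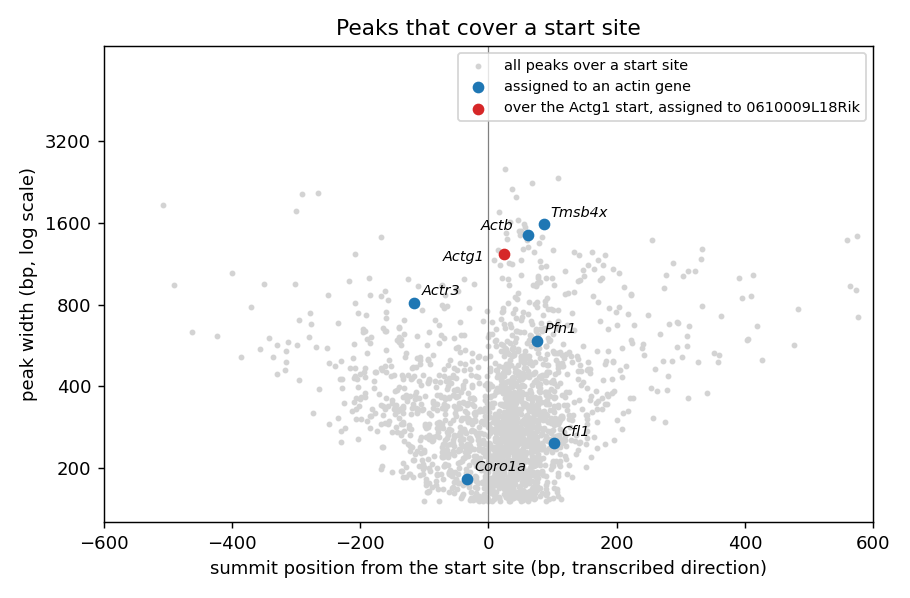
Width (log axis, bp) against summit position from the start site (bp, positive in the transcribed direction) for peaks that cover a start site, grey for the whole list, blue for those assigned to the 9 genes and red for the peak over the start of Actg1. The peaks of Actb, Actg1 and Tmsb4x are wider than 1000 bp with summits 25 to 86 bp downstream of the start, and 12 grey peaks lie beyond the 600 bp shown.

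Of the 9 genes, 8 had at least 1 assigned peak, beside 12.9% of 21887 protein-coding genes. All 8 had a Promoter peak, beside 11.3%. At least 2 were assigned to 4 genes (Actr3, Actb, Tmsb4x and Cfl1), beside 2.14% of all protein-coding genes and 16.6% of those with any peak. At least 3 were assigned to 3 genes, beside 0.649%. Since the genes were chosen by their peaks, nothing is read from these shares. Counted by position instead of by the authors' assignment, all 9 genes had a peak over the span extended by 1 kb on each side, beside 15.4%, and 8 had at least 2, beside 2.94%. Actr2 was the one with a single peak. Together the peaks covered 45.3% of the Actb span, 34.0% of Actg1, 31.2% of Tmsb4x and 19.3% of Cfl1, but 0.521% of Actr2 and 0.533% of Arpc2, which are long genes.

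Most of the genes also had a peak past the 3′ end. This measure was chosen after the values were seen. Within 3 kb past the 3′ end, 7 of the 9 genes had at least 1 peak, the exceptions being Actr2 and Cfl1, beside 3.10% of 17493 protein-coding genes with a known strand and 11.5% of those with an assigned peak. The 14 peaks concerned had fold enrichments from 3.03 to 6.01. None of them lay within 1 kb of the start of another gene in the promoter table. That table does not hold every start. For 1 Pfn1 peak its nearest was Rnf167 at 4269 bp, where the deposited annotation gave Eno3 at 1431 bp. The peak of 4.41 past Pfn1 overlapped the span of Rnf167, and the wide peak past Actb overlapped that of Gm38733. With a limit of 1 kb past the end the count was again 7 of 9, beside 1.65% of all and 7.11% of those with an assigned peak. At a −log10 q of at least 3 it was 6 of 9, since the Arpc2 peak was below that level. The shares beside it were 2.29% of all and 8.65% of those with an assigned peak. Whether transcription, open chromatin or ATF4 itself gives this signal was not tested, and the list gives no input values to set beside it.

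The same counts differed between gene lists, which were also chosen with earlier results of these data known. Of all protein-coding genes, 12.9% had an assigned peak and 2.14% at least 2. Of those with a known strand, 3.10% had a peak past the 3′ end. Among 19 other genes known for abundant transcription, 17 had an assigned peak and 12 at least 2, among them the class I histocompatibility genes H2-D1 and H2-K1 with 4 peaks each. Of the 14 with a known strand, 5 had a peak past the 3′ end, among them the β2-microglobulin gene B2m at 7.49 over 2932 bp and the elongation factor gene Eef1a1 at 3.78. Among 57 cytosolic ribosomal protein genes, 33 had an assigned peak and 4 at least 2, among them Rps6, Rps9 and Rps19. A peak past the 3′ end stood at 11 of 44. Among 20 ATF4 targets, such as the stress genes Ddit4 and Herpud1 and the transporter subunit gene Slc3a2, all had an assigned peak and 4 at least 2, but 1 of 18 had a peak past the 3′ end. Such a peak also stood at 3 of 8 T cell identity genes (Cd5, Ctla4 and Il2ra) and at 1 of 6 marker genes of other cell types. Without peaks within 1 kb of the start of another gene these counts were 2 of 8 and 0 of 6, and at a −log10 q of at least 3 they were 1 of 8 and 1 of 6.

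By strength the order of the lists was another. The median over genes of the strongest fold enrichment was 11.3 for the ATF4 targets, 4.68 for the abundantly transcribed genes, 3.69 for the 8 actin genes with an assigned peak and 2.95 for ribosomal proteins, beside 3.36 over all protein-coding genes with a peak. The 11.8 of Actb was near the median of the ATF4 targets, whose highest value was 38.4. Tubulins, the building blocks of the other main filament system, had an assigned peak at 7 of 16 genes, beside 12.9% of all protein-coding genes. The strongest were Tuba4a at 7.63, Tuba1b at 4.55 and Tubb4b at 4.50. A peak past the 3′ end stood at 1 of 13, beside 3.10%. These differences between lists, chosen with earlier results known, were not tested.

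**Figure D4:**
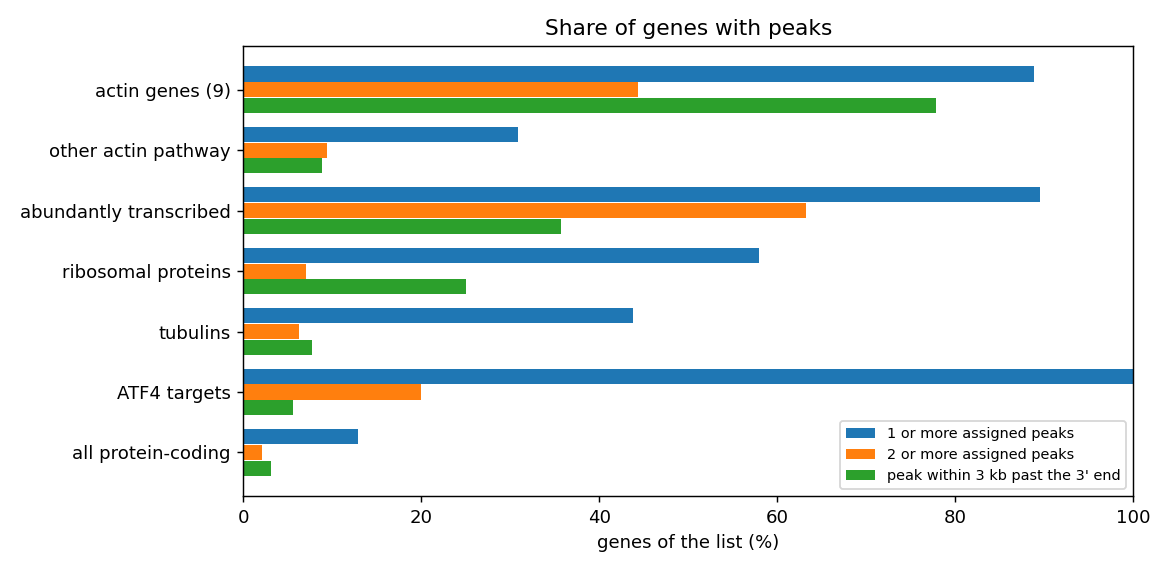
Percent of genes of each list with at least 1 assigned peak (blue), at least 2 assigned peaks (orange) and a peak within 3 kb past the 3′ end (green, genes with a known strand). The green bar is 77.8% for the actin genes, 35.7% for other abundantly transcribed genes, 25.0% for ribosomal proteins and 5.56% for ATF4 targets, while lists not drawn include other Arp2/3 subunits (2 of 5 genes) and T cell identity (3 of 8, or 37.5%). The actin genes were chosen by their peaks, and the other lists were chosen with earlier results of these data known.

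Of 149 other genes in 11 lists, 46 had an assigned peak (30.9%), 14 at least 2 (9.40%) and 40 a Promoter peak (26.8%), beside 12.9%, 2.14% and 11.3% of all protein-coding genes. Past the 3′ end, 11 of 124 had one (8.87%), beside 3.10%. These differences were not tested. The median strongest fold enrichment was 3.37, beside 3.36 for all protein-coding genes with a peak.

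For other Arp2/3 subunits, coronins and muscle actins the counts are small, and nothing is read from them beside the 12.9% of all protein-coding genes. Of the other Arp2/3 subunit genes, 1 of 7 (14.3%) had an assigned peak, Arpc5, with 2 peaks and a strongest fold enrichment of 4.11. Arpc1b had none assigned, but 2 peaks lay past its 3′ end, the stronger at 5.20. Of the other coronins and Arp2/3 inhibitors, 1 of 9 (11.1%) had an assigned peak, Coro2a, with 3 peaks and a strongest value of 4.24 in an intron. The 4 muscle actins, Acta1, Acta2, Actc1 and Actg2, had none.

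Among other genes of monomer binding and the cofilin pathway, 5 of 18 (27.8%) had an assigned peak, beside 12.9% of all protein-coding genes. Thymosin β10 (Tmsb10), the close relative of Tmsb4x, had 5, with a strongest fold enrichment of 6.21, a −log10 q of 50.9 and 46.5% of its span covered, and 3 peaks lay past its 3′ end. Ssh2, a phosphatase that activates cofilin, had 3 with a strongest value of 5.00, and Cap1, an actin-recycling protein gene, had 1 at 3.12. Tmsb10 and Tmsb4x thus both had several peaks over the gene and past it.

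Activators of Arp2/3 had an assigned peak at 4 of 18 genes (22.2%), beside 12.9% of all protein-coding genes. The strongest were Hcls1 at 3.98, Cyfip2 at 3.93 and Abi1 at 3.75. Serum response factor (Srf) and its actin-sensing coactivators Mrtfa and Mrtfb, which control many actin genes through CArG boxes, had no assigned peak.

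The next lists held filament proteins, set beside the 12.9% of all protein-coding genes with an assigned peak. Myosins and tropomyosins had an assigned peak at 8 of 16 genes (50%), with 4 at Myo1g (strongest 5.05), 2 at Tpm4 (2.89) and 1 at Myo1c (3.67). Crosslinkers and membrane linkers had one at 8 of 20 (40%). There were 2 each at the plastin gene Lcp1 (5.04) and the moesin gene Msn (4.91) and 1 at the filamin gene Flna (5.72). Capping and severing genes had one at 3 of 19 (15.8%), Add3 with 4 peaks (4.98), Capza1 (3.34) and Add1 (2.36). Formins with Ena/VASP genes had one at 3 of 16 (18.8%), Vasp with 2 (5.34), Fmnl1 (4.90) and Diaph1 (3.26). The counts in these lists are small, and nothing is read from them.

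By 4 measures ranked over the 2824 protein-coding genes with a peak (number of peaks, percent of the span covered, strongest fold enrichment and strongest −log10 q), the genes nearest to the median of the 8 were Manf, Rpl8, Rgs2, Rplp0 and Ncl. Their mean difference from that median was 6.87 to 8.46 percentile points, and each had 1 peak. Among the protein-coding genes with the most peaks were Hnrnpa2b1, a splicing factor gene, with 8, then 7 at the transcription factor gene Klf2 and 6 each at Lfng and Apobec3.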

How the data were processed

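ATF4 ChIP-seq and input samples were sequenced by the authors, and 1 deposited peak list of the series was used here. The submitters' processing notes name mm10 as the build, with MACS2, Bowtie2, deepTools and Trim Galore among the software. Which replicates were pooled, how inputs were used and software versions: not given in the sources used here. Fold enrichment, −log10 p, −log10 q, class, assigned gene and distance to the start site are the authors' deposited values. Deposited start positions count from 0, and adding 1 to them recovered the deposited distance in 4544 of 4544 peaks.

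Peaks were assigned to genes by the deposited symbol. Spans, biotypes and promoter sequences came from RefSeq (GRCm38.p6), and strand for 3′ ends from its promoter table, except for Actb, where it came from the deposited list. Protein-coding genes on chromosomes 1 to 19, X and Y were the background. Of 17 gene lists, 1 entry (Malat1) was no protein-coding gene. The members and lists were chosen with earlier results of these data known. Named were the members, up to 3 genes per list by number of peaks, the 5 nearest genes by 4 ranked measures and the 5 genes with most peaks, and some results under this rule are not reported here. Genes named for peaks past the 3′ end and Rps19 were chosen after their values were seen. No test was run, since there are no values per sample. Overlap counting was tested on simulated data. Python 3.11.15, numpy 2.4.6, pandas 2.3.3 and matplotlib 3.10.9 were used.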

Additional observations from a re-analysis of the deposited data

How the results depend on the processing

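Of 18 alternatives to the counts and medians, 14 stayed within 1.5 times the value given. With only peaks above the median fold enrichment of the list, 5 of 9 genes had an assigned peak, in place of 8. Of all protein-coding genes, 6.78% had such a peak. Genes with at least 2 peaks were 2 in place of 4 when peaks less than 500 bp apart were joined, since those of Tmsb4x and Cfl1 merged. Joined in this way, 1.68% of all protein-coding genes had at least 2. Of the 9 genes, 8 had at least 2 when peaks were counted by overlap with the span extended by 1 kb, beside 2.94%. The count was also 8 when at least 50% of the peak had to overlap. That count therefore depends on how peaks are joined and assigned. The count of genes with a peak past the 3′ end, chosen after seeing the data, was 6 or 7 under its 4 alternatives. No paired analysis was possible because the list holds no values per sample. For the same reason no replicate could be left out. Depth is unknown, so a gene with no peak is not shown to lack binding.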
